A study of Homo sapiens with 6 samples.

Results

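The circadian clock repressors and outputs measured here are 10 genes, PER1, PER2, PER3, CRY1, CRY2, NR1D1, NR1D2, DBP, TEF and CIART. They were chosen by symbol, and each was found among the 17280 genes of the expression table. RNA was sequenced from sphere cultures of the human tongue carcinoma cell line CAL-27, a long-established squamous line, in 6 libraries. The 3 CON libraries are untreated controls as far as the labels say, with no vehicle named. The other 3 are titled LF3, an inhibitor of the binding of beta-catenin to TCF4 that the series text says was given for 24 h, while their treatment label names elesclomol-Cu, a copper ionophore with copper; the titles set the groups used here. All 6 libraries come from a single cell line grown as spheres, and whether replicates were grown as separate cultures is not said, so every p-value reflects the spread among these 6 libraries alone, which may be technical. No source used here gives the hour of harvest or any synchronisation of the cells, and each group was taken at a single time, so levels can be read but rhythms cannot.

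In the core loop of the clock, a dimer of CLOCK (or NPAS2) and BMAL1 binds E-box elements and activates the PER, CRY and NR1D genes. PER and CRY proteins return to the nucleus to block that dimer, and the NR1D proteins (REV-ERB alpha and beta) repress BMAL1 by competing with ROR receptors for the same element. DBP, TEF and HLF are PAR bZIP activators that carry the rhythm to output genes through D-box elements, where the repressor NFIL3 competes with them. CIART, also called CHRONO, is a further inhibitor of the CLOCK and BMAL1 dimer. PER1 is known in many cell types as a gene that also responds rapidly to serum, cAMP and glucocorticoids.

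The LF3 libraries held less RNA of most clock repressors, with falls of very different size between paralogues. PER1 stood 11.4-fold lower in LF3 than in CON, NR1D1 5.71-fold lower and CRY2 4.10-fold lower, as ratios of mean TPM. TEF was 1.97-fold, PER2 1.83-fold and NR1D2 1.21-fold lower, DBP was 1.40-fold higher, and CRY1 and PER3 did not pass the test. Of the 9 members with a mean of at least 1 TPM, which were the ones tested, 6 were called lower, 1 higher and 2 neither (limma on log2(TPM + 1), Benjamini-Hochberg adjusted p under 0.05 over 12195 genes). Among all tested genes 32.3% were called lower, 53.2% higher and 85.5% in either direction, so a call by itself sets few genes apart here. Called falls of at least 1 on the log2 scale were found for 3 of the 9, PER1, NR1D1 and CRY2, against 11.1% of tested genes. The libraries of the groups did not overlap in 7 of the 9, against 86.2% of tested genes. The members' median difference was -0.71 on the log2 scale, while that of all tested genes was 0.24.

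TPM gives each gene's share of a library's transcripts, corrected for length and scaled to a fixed total, so read depth cannot be recovered from it and a shift in abundant genes moves all others. Rescaling each library to a common median ratio over the tested genes brought the median of all genes to -0.0055. After that rescaling 7 of the 9 members were called lower and 0 higher, against 42.7% and 42.6% of tested genes, because CRY1 became called lower (-0.18, limma adjusted p = 0.0093) and DBP lost its call (0.16, limma adjusted p = 0.098). Quantile normalization gave 7 lower and 2 higher, PER3 being added with 0.28 (limma adjusted p = 0.0226). Of all 12195 tested genes, quantile normalization left 5054 called lower and 5355 called higher. The falls of PER1, NR1D1, CRY2, TEF, PER2 and NR1D2 stayed called under both scalings. In bulk RNA, fewer cells expressing a gene and less RNA per cell cannot be told apart.

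**Figure D1:**
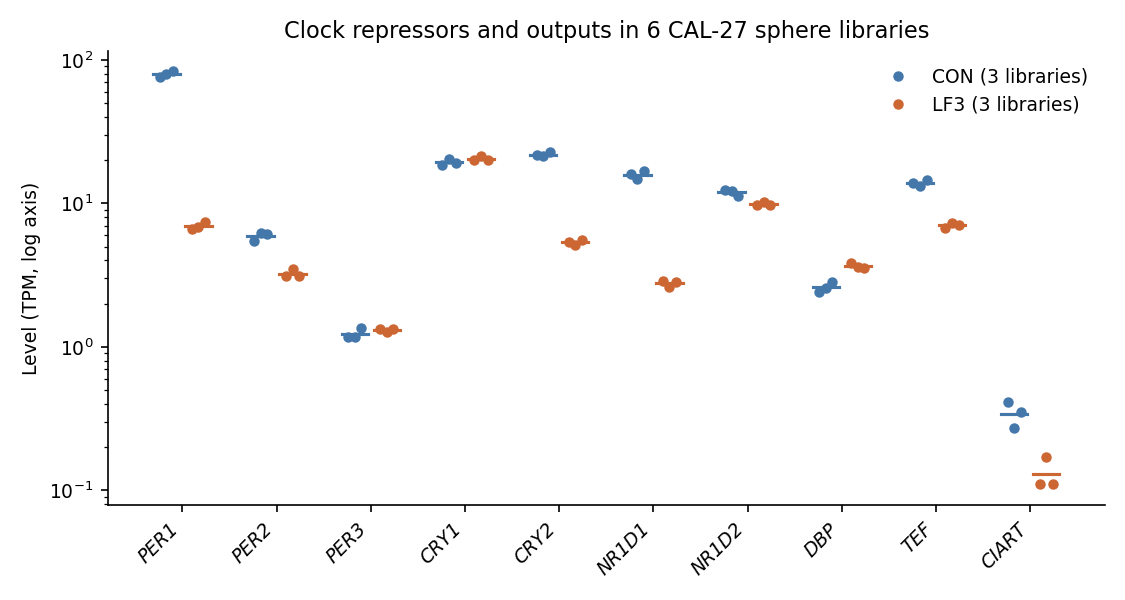
Level of each member in TPM (log axis) in the 3 CON libraries (blue points) and the 3 LF3 libraries (orange points); short lines are group means. PER1, CRY2 and NR1D1 show the widest gaps, CRY1 and PER3 overlap between groups, and CIART lies below 1 TPM in every library.

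The library totals were equal by construction, and 1359 to 1407 genes were listed at 0 in CON against 1948 to 1986 in LF3. Of 10 squamous epithelial markers, 9 averaged at least 1 TPM and KRT14 did not; their summed level was 1268 to 1294 in CON and 1762 to 1801 TPM in LF3. Within it the means of KRT5 (102 and 454 TPM) and SFN (339 and 608 TPM) were higher in LF3, and those of KRT17 (200.01 and 58.8 TPM) and KRT16 (14.6 and 5.86 TPM) lower. Of 6 immune markers in the table, 2 averaged at least 1 TPM, and the summed level was 329 to 341 in CON and 47.3 to 51.9 TPM in LF3. Nearly all of it was CD68, a lysosomal gene that is not limited to macrophages. The other of the 2, CD14, went the other way, with means of 0.693 TPM in CON and 1.99 TPM in LF3. The pan-leukocyte gene PTPRC did not exceed 0.02 TPM. The 7 fibroblast markers summed to 12.2 to 13.3 in CON and 5.34 to 5.65 TPM in LF3, mostly COL1A1, with DCN at or below 0.03 TPM. The 5 endothelial markers summed to 0.5 to 0.62 in CON and 6.31 to 7.51 TPM in LF3, with CDH5 at 0.11 TPM in each CON library and at 5.70 to 6.93 TPM in LF3, and with KDR at or below 0.04 TPM. The part of these shifts in the clock results was not tested.

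The period genes PER1, PER2 and PER3 encode the scaffold proteins of the repressor complex. PER1 was the most abundant member in CON, at 76.2, 79.3 and 83.0 TPM, and stood at 6.65, 6.81 and 7.38 TPM in LF3. The lowest CON library thus lay far above the highest LF3 library. The difference was -3.34 ± 0.059 on the log2 scale (limma standard error, 95% interval -3.47 to -3.21, limma adjusted p = 4.53e-12), and 46 of 12195 tested genes had a difference at least as low. PER2 stood at 5.49, 6.24 and 6.07 in CON and at 3.11, 3.50 and 3.12 TPM in LF3. Every LF3 value of PER2 was below every CON value, with a difference of -0.71 ± 0.086 (limma adjusted p = 1.42e-05). PER3 was low in both groups, at 1.17, 1.18 and 1.35 in CON and 1.33, 1.27 and 1.33 TPM in LF3. These ranges overlapped and the difference of PER3 was 0.050 ± 0.098, with a 95% interval of -0.17 to 0.27 (limma adjusted p = 0.645). UTS2 on the opposite strand, at 0.51 TPM in CON and 0.397 in LF3 on average, shares 868 of the 6486 exon bases of PER3 in GENCODE v29, so the reads of PER3 are in part uncertain.

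The 3 PER genes together summed to 86.7 ± 3.79 in CON and 11.5 ± 0.376 TPM in LF3 (mean ± SD, n = 3). Within that sum PER1 made up 91.7 ± 0.267% in CON and 60.4 ± 1.82% in LF3, PER2 6.84 ± 0.310% and 28.2 ± 1.93%, and PER3 1.42 ± 0.0662% and 11.4 ± 0.531%. Such shares, like the ratio of PER1 to PER2, are left as they are when all genes of a library are multiplied by a common factor, but not by quantile normalization. There were 12.7 to 13.9 transcripts of PER1 per transcript of PER2 in CON and 1.95 to 2.37 in LF3. The log2 ratio of PER1 to PER2 was lower by 2.65 in LF3 (-2.65 as LF3 minus CON), with p = 0.1 by an exact two-sided permutation test. That p is the smallest that 3 against 3 libraries can give, and it was the same for each of the 9 gene ratios examined, before and after Benjamini-Hochberg adjustment over them.

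**Figure D2:**
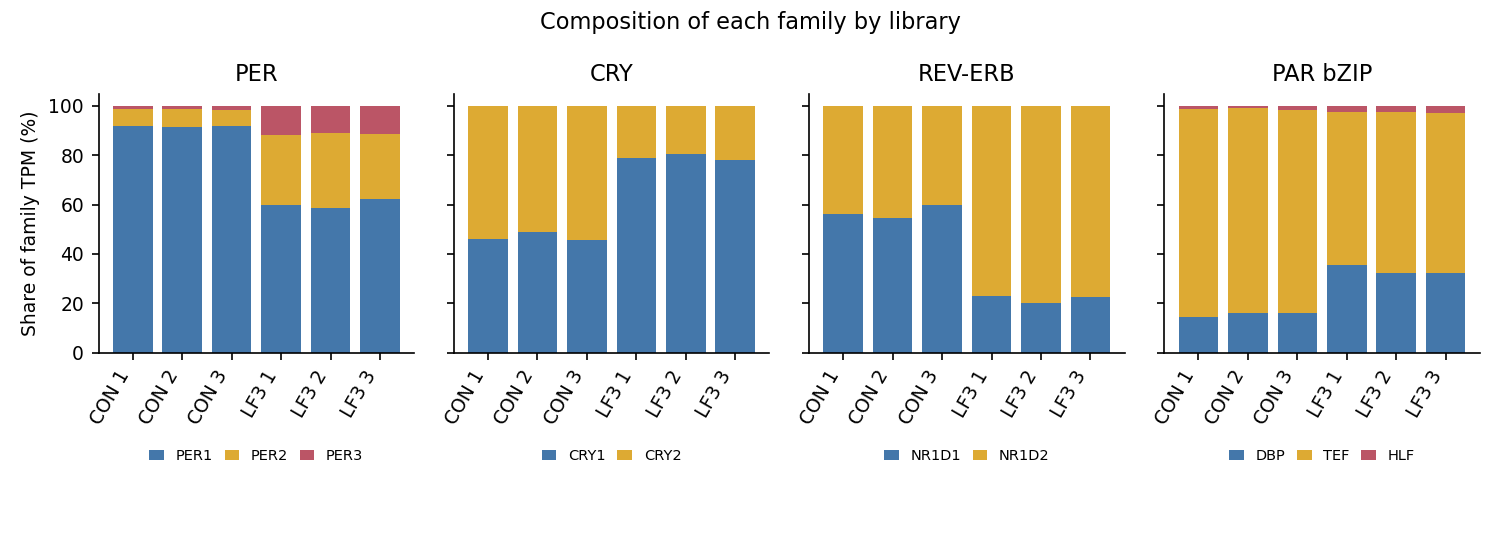
Share of each paralogue in the summed TPM of its family (percent, axis from 0) in each of the 6 libraries, for the PER, CRY, REV-ERB (NR1D) and PAR bZIP genes. PER1, CRY2 and NR1D1 take a smaller share in all 3 LF3 libraries than in any CON library, and CRY1, NR1D2 and DBP a larger one.

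The promoter windows of PER1 and PER2 are shown because these genes share a family and fell by different amounts. Each window holds 250 bases before to 50 bases after an annotated start, taken from RefSeq on GRCh38.p14 and written 5′ to 3′ on the strand of the gene: chr17:8152355-8152654 (minus strand) for PER1 and chr2:238288561-238288860 (minus strand) for PER2. Capitals mark matches on either strand to the E-box CACGTG, the related CACGTT and the D-box TTANGTAA, and positions count from 0 at the start with negative numbers before it. PER1 has CACGTG at -173, and PER2 has CACGTT at -197 and a D-box match at -3. Whether these or any other member's matches bear on the size of a fall was not tested.
PER1: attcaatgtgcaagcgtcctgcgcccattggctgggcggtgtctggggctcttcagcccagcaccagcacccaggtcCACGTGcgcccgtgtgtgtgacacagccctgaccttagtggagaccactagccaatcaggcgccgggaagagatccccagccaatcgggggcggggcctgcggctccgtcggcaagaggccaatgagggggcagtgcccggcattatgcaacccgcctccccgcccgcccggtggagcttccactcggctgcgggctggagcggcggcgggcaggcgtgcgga
PER2: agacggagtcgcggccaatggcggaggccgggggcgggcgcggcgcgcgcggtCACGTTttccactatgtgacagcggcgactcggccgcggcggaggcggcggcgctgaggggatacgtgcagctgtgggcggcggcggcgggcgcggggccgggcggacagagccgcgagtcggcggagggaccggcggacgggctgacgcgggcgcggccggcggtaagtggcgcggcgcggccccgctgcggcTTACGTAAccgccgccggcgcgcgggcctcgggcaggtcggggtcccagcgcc

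The cryptochrome genes CRY1 and CRY2 encode the proteins that bind and silence the CLOCK and BMAL1 dimer. CRY2 stood at 21.8, 21.2 and 22.6 in CON and 5.34, 5.10 and 5.57 TPM in LF3. All 3 LF3 libraries lay at about the same low level, and the difference was -1.85 ± 0.065 (limma adjusted p = 5.37e-10). CRY1 stood at 18.5, 20.3 and 19.0 in CON and 20.0, 21.2 and 19.9 TPM in LF3. The groups of CRY1 overlapped, and its difference of 0.079 ± 0.059 had a 95% interval of -0.053 to 0.21 (limma adjusted p = 0.232). Both scalings turned the sign of CRY1, to -0.18 and -0.22, and called it lower, so its direction rests on the scaling.

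The ratio of CRY1 to CRY2, which no common factor per library can alter, was 0.841 to 0.953 in CON and 3.58 to 4.16 in LF3. CRY1 thus went from 46.8 ± 1.74% to 79.2 ± 1.26% of the cryptochrome TPM, while the sum went from 41.2 ± 0.699 to 25.7 ± 0.526 TPM. The log2 ratio of CRY1 to CRY2 was 2.12 higher in LF3 (exact permutation p = 0.1). The ratio of PER2 to CRY1 was 0.296 to 0.319 in CON and 0.155 to 0.165 in LF3. RefSeq gives CRY2 2 windows, and the one printed, chr11:45847225-45847524 (plus strand, GRCh38.p14), is the one with matches. It holds CACGTT, read as AACGTG, at -188, and also the ROR element core TAGGTCA at -65, left in lower case.
CRY2: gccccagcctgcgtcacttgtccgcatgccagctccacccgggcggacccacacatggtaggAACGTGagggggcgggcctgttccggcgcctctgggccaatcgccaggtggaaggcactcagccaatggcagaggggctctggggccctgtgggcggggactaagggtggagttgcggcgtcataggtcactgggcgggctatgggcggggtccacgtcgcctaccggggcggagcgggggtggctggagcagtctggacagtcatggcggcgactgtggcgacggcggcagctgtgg

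The REV-ERB genes NR1D1 and NR1D2 encode heme-binding nuclear receptors that repress transcription. NR1D1 stood at 15.9, 14.7 and 16.9 in CON and 2.88, 2.61 and 2.82 TPM in LF3. Its groups were far apart, with a difference of -2.16 ± 0.078 (95% interval -2.33 to -1.98, limma adjusted p = 6.59e-10). Its paralogue NR1D2 stood at 12.4, 12.2 and 11.2 in CON and 9.68, 10.3 and 9.72 TPM in LF3. That smaller fall of NR1D2 also left no overlap between groups, at -0.25 ± 0.068 (limma adjusted p = 0.00548), or -0.50 after median-ratio scaling and -0.53 after quantile normalization. The ratio of NR1D1 to NR1D2 was 1.21 to 1.499 in CON and 0.254 to 0.298 in LF3, so the order of the paralogues was the opposite in the groups. NR1D1 made up 57.0 ± 2.73% of the pair in CON and 21.9 ± 1.44% in LF3, and the pair's sum was 27.8 ± 0.754 and 12.7 ± 0.197 TPM.

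In GENCODE v29 the exons of NR1D1 and of THRA, which lies on the opposite strand, share 263 of the 2772 exon bases of NR1D1. No source used here says whether the libraries kept strand, so reads from that stretch cannot be assigned; THRA averaged 11.0 in CON and 9.59 TPM in LF3. The windows of the pair are shown side by side, and that of NR1D2 was added after its matches were seen. Whether the matches bear on the falls of these genes was not tested. They lie at chr17:40100540-40100839 (minus strand) and chr3:23945871-23946170 (plus strand, the second of 2 windows) on GRCh38.p14. NR1D1 has AACGTG, the reverse reading of CACGTT, at -168, and NR1D2 has CACGTG at -155 and -105 and a D-box match at -194, and also the ROR core TGGGTCA, read as TGACCCA and left in lower case, at -133.
NR1D1: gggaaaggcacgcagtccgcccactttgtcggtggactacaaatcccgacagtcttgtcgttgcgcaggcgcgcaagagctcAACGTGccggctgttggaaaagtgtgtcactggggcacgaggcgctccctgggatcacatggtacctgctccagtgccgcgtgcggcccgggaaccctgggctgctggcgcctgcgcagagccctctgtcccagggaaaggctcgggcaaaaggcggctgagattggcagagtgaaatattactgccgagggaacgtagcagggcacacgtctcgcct
NR1D2: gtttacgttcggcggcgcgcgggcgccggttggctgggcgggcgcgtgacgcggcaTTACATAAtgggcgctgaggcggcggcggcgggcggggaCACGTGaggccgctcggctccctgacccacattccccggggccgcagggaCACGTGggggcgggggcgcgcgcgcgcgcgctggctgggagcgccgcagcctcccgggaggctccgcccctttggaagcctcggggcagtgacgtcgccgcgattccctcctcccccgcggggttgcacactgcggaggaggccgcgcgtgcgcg

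**Figure D3:**
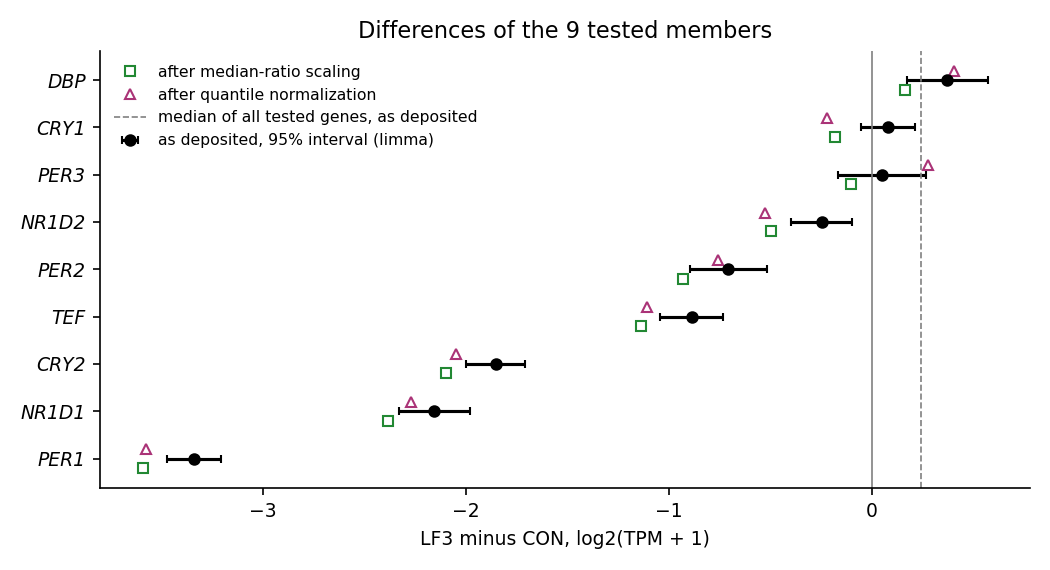
Difference between LF3 and CON on the log2(TPM + 1) scale for the 9 tested members, with 95% limma intervals (black), after median-ratio scaling (green squares) and after quantile normalization (purple triangles); the dashed line at 0.24 is the median of all tested genes. PER1, NR1D1 and CRY2 lie below -1 under all 3 treatments of the data, while CRY1 and PER3 change sign between them.

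Among the PAR bZIP outputs, DBP and TEF moved in opposite directions. TEF stood at 13.8, 13.2 and 14.6 in CON and 6.72, 7.25 and 7.12 TPM in LF3, with every LF3 library at about the same lower level. Its difference was -0.89 ± 0.069 (limma adjusted p = 3.46e-07). DBP, known as a strongly rhythmic direct target of CLOCK and BMAL1, stood at 2.40, 2.59 and 2.85 in CON and 3.86, 3.61 and 3.53 TPM in LF3. All LF3 values of DBP were above all CON values, and the difference was 0.37 ± 0.090 (limma adjusted p = 0.0026), a call lost after median-ratio scaling as given above. DBP shares 661 of its 2875 annotated exon bases with SPHK2 on the opposite strand, which averaged 3.64 in CON and 6.15 TPM in LF3, so its reads are in part uncertain. HLF, the remaining PAR bZIP gene, was at 0.17 to 0.33 in CON and 0.26 to 0.30 TPM in LF3, under the filter.

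The ratio of DBP to TEF was 0.174 to 0.196 in CON and 0.496 to 0.574 in LF3. NFIL3, the repressor that competes with them at D-boxes, was 4.80-fold lower in LF3 and outweighed both in either group, at 161 to 167 in CON and 32.4 to 35.4 TPM in LF3. Its difference was -2.23 ± 0.046 (limma adjusted p = 1.27e-11). There were 0.0149 to 0.0171 transcripts of DBP per transcript of NFIL3 in CON and 0.103 to 0.109 in LF3, a 6.75-fold higher ratio. Of the windows of TEF, both have CACGTG, at -195 and -193, and the first (chr22:41367205-41367504, plus strand, GRCh38.p14) is printed; the window of DBP has no match to any of the 7 motifs searched.
TEF: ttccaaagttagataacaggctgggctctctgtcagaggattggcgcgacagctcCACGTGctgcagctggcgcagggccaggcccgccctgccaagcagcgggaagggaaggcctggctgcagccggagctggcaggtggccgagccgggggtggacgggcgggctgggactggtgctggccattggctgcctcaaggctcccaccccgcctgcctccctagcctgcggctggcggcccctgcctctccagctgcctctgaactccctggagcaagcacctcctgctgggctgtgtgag

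CIART was the scarcest member and was not tested, as its mean was below 1 TPM. It stood at 0.41, 0.27 and 0.35 in CON and 0.11, 0.17 and 0.11 TPM in LF3. The groups did not overlap, and with no filter the difference was -0.25 ± 0.050 (limma adjusted p = 0.0032). Its window holds 3 matches to CACGTG, at -129, -71 and -57, more than that of any other member. Values this low come from few reads, and TPM does not give their number.

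Windows were found for 10 of 10 members, 14 in all, and those of PER3 overlap each other. CACGTG was in 5 of the 14 member windows and in 7.26% of 35116 promoter windows of the same length. CACGTT, which shares its first 5 letters, was in 4 (5.34% of all windows) and TTANGTAA in 3 (2.18%). TAGGTCA was in 1 (1.85%) and TGGGTCA, the other ROR core, in 1 (3.92%). The cAMP response element TGACGTCA was in 0 (1.85%) and the paired glucocorticoid half-sites ACANNNTGT in 0 (5.37%). Every motif was searched on both strands, and no 2 matches overlapped in a member window. A window covers only 300 bases, so elements elsewhere were not looked at, and the G and C content of member windows, 46.3 to 81.0% beside a median of 58.7% over all windows, bears on how often such letters occur.

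The order of levels among the members differed between the groups. In CON, PER1 was followed by CRY2, CRY1, NR1D1, TEF, NR1D2, PER2, DBP, PER3 and CIART, and no neighbours in that order overlapped. In LF3, CRY1 was the most abundant at 20.4 ± 0.725 TPM, followed by NR1D2 at 9.89 ± 0.335, TEF at 7.03 ± 0.276 and PER1 at 6.95 ± 0.384 TPM, of which TEF and PER1 overlapped. CRY2, DBP, PER2, NR1D1, PER3 and CIART came after them, with no overlap between neighbours. NR1D1 thus went from the fourth to the eighth place. Spread within groups was small, with coefficients of variation of 2.64 to 8.64% for the 9 tested members.

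The differences of the activators CLOCK, NPAS2, BMAL1 and BMAL2 were much closer to 0 than that of PER1, while RORA was far lower in LF3. BMAL1, at -0.51, nevertheless fell more than the member NR1D2, at -0.25, though less than PER2, at -0.71. Of 6 tested genes among the activators and RORs, 3 were called higher and 3 lower (1 and 3 after median-ratio scaling), with a median of -0.14. Among all tested genes 53.2% were called higher and 32.3% lower (42.6% and 42.7% after that scaling). BMAL1, listed under its older symbol ARNTL, stood at 26.9, 27.6 and 24.3 in CON and 18.48, 18.72 and 17.02 TPM in LF3, a difference of -0.51 ± 0.065 (limma adjusted p = 2.15e-05), or -0.78 and -0.84 under the median-ratio and quantile scalings. CLOCK stood between 3.0 and 3.40 in CON and at 5.36, 5.10 and 3.96 TPM in LF3, a difference of 0.46 ± 0.11 (limma adjusted p = 0.00214), or 0.24 after median-ratio scaling. The third LF3 library was the lowest of its group for CLOCK but still above CON. NPAS2, the paralogue of CLOCK, was 0.31 ± 0.098 higher (limma adjusted p = 0.0119), and BMAL2, listed as ARNTL2, 0.23 ± 0.063 higher (limma adjusted p = 0.00528). NPAS2 lost its call under both scalings, without CON replicate 2 and without LF3 replicate 2 (limma adjusted p = 0.464, 0.164, 0.0509 and 0.0556). BMAL2 turned to -0.033 and -0.13 under the scalings, with no call.

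RORA, the receptor that activates BMAL1 against the REV-ERBs, stood at 7.92, 8.71 and 7.04 in CON and 0.44, 0.39 and 0.32 TPM in LF3. Its difference was -2.68 ± 0.10 (limma adjusted p = 8.29e-10), or -4.05 with a pseudocount of 0.1, and its groups were widely apart. RORB stayed at or below 0.57 TPM in all libraries. NR1D1 and RORA, opposing regulators of BMAL1, were thus both lower. NR1D1 stood at 1.69 to 2.39 transcripts per RORA transcript in CON and 6.55 to 8.81 in LF3. That log2 ratio was 1.86 higher in LF3, or 0.52 with 1 TPM added to both genes, since RORA is so low there. Per BMAL1 transcript there were 0.533 to 0.692 transcripts of NR1D1 in CON and 0.139 to 0.166 in LF3, and 0.442 to 0.462 and 0.524 to 0.571 of NR1D2.

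**Figure D4:**
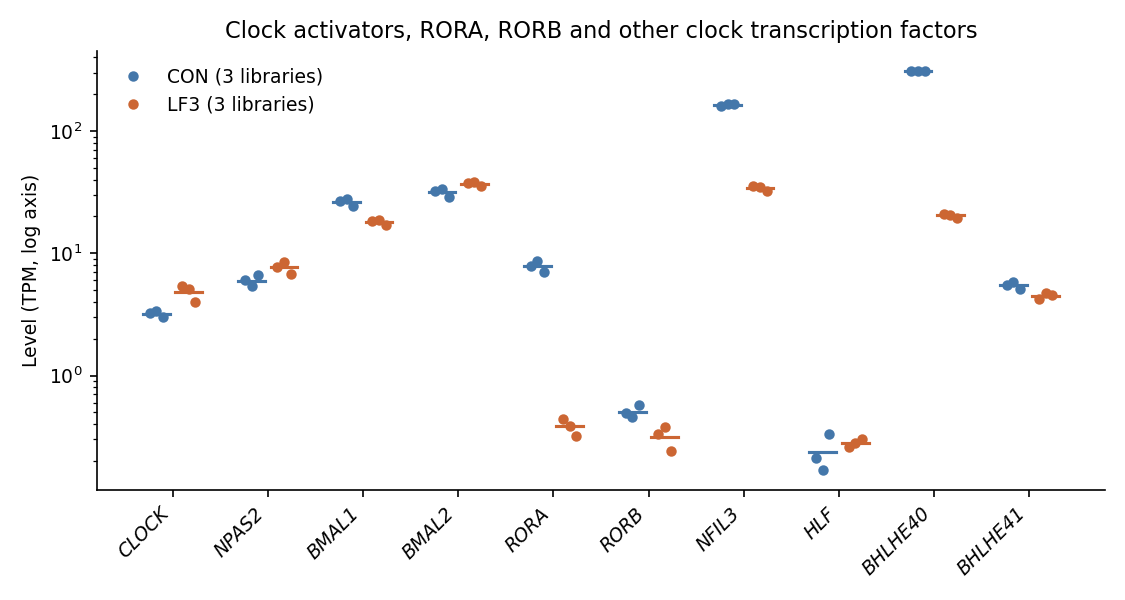
Level in TPM (log axis) of the clock activators, RORA, RORB and other clock transcription factors in the 3 CON (blue) and 3 LF3 (orange) libraries; short lines are group means. RORA, NFIL3 and BHLHE40 show wide gaps, and BMAL1 a narrower one.

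Of 6 tested genes among the other repressors and D-box factors, 3 were called higher and 3 lower (3 and 3 after median-ratio scaling), with a median of 0.10. Among all tested genes 53.2% were called higher and 32.3% lower (42.6% and 42.7% after that scaling). BHLHE40 (DEC1), which represses E-box genes and is also known to be induced by low oxygen, stood at 307, 309 and 311 in CON and 20.9, 20.7 and 19.5 TPM in LF3. Its difference was -3.86 ± 0.041 (limma adjusted p = 3.08e-13), a larger fall than that of any member. Its paralogue BHLHE41, named after its values were seen, had -0.23 ± 0.083 (limma adjusted p = 0.0218), a call lost without CON replicate 1, CON replicate 2 or LF3 replicate 1 (limma adjusted p = 0.0593, 0.0813 and 0.0778), and -0.46 after median-ratio scaling. TIMELESS and TIPIN, partners at the replication fork and named for a link to the clock, were higher by 1.41 ± 0.049 and 2.31 ± 0.068 (limma adjusted p = 4.48e-10 and 1.47e-10). CIPC, an inhibitor of CLOCK, was 0.43 ± 0.074 higher (limma adjusted p = 0.000222), with 0.18 after median-ratio scaling and 0.13, no longer called, after quantile normalization (limma adjusted p = 0.078).

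Of 19 tested genes whose products modify PER and CRY proteins, 7 were called higher and 6 lower (6 and 10 after median-ratio scaling), with a median of 0.042. Over all tested genes 53.2% were called higher and 32.3% lower (42.6% and 42.7% after that scaling), so the share called lower was near that of all genes. CSNK1E, a kinase that marks PER proteins for degradation, stood at 153 ± 6.58 in CON and 71.4 ± 1.96 TPM in LF3, a difference of -1.09 ± 0.044. Its paralogue CSNK1D, named after its values were seen, had a difference of -0.12 ± 0.040 (-0.39 and -0.47 under the median-ratio and quantile scalings), with 74.6 ± 1.86 in CON and 68.4 ± 0.705 TPM in LF3. The casein kinase 2 subunit gene CSNK2A1 was lower by 0.62 (-0.62 ± 0.040). PPP5C, a phosphatase that acts on casein kinase 1, was higher by 1.09 ± 0.047, USP7, a deubiquitinase that stabilises CRY proteins, by 0.95 ± 0.045, PPP1CA by 0.74 ± 0.030 and GSK3A by 0.62 ± 0.054. Under the median-ratio and quantile scalings GSK3A was at 0.36 and 0.25, USP7 at 0.68 and 0.59, PPP1CA at 0.46 and 0.55 and CSNK2A1 at -0.89 and -0.95.

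Partners of the repressor complexes were mostly higher, as were tested genes at large. Of 19 tested, 15 were called higher and 1 lower (9 and 4 after median-ratio scaling), beside 53.2% and 32.3% of all tested genes (42.6% and 42.7% after that scaling). Their median was 0.34 beside 0.24 for all tested genes, and 0.080 beside -0.0055 after that scaling. SFPQ, an RNA-binding partner of PER proteins, had 2.46 ± 0.039, and WDR5, a methyltransferase subunit bound by PER complexes, 1.45 ± 0.050. The histone methyltransferase gene SUV39H1 had 1.37 ± 0.064 and the helicase gene DDX5 1.14 ± 0.041. CBX3, which encodes HP1 gamma, had 1.03 ± 0.042 and the deacetylase gene HDAC1 0.83 ± 0.033. After median-ratio scaling these named partners ranged from 0.56 for HDAC1 to 2.18 for SFPQ.

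Of 17 tested genes known in other tissues to be driven by the clock, 2 were called higher and 11 lower (1 and 15 after median-ratio scaling). Their median was -0.65 beside 0.24 for all tested genes, of which 53.2% were called higher and 32.3% lower (42.6% and 42.7% after that scaling). TSC22D3, a glucocorticoid-induced gene, stood at 51.5 ± 2.18 in CON and 10.2 ± 0.992 TPM in LF3, a difference of -2.23 ± 0.070. The cell cycle inhibitor gene CDKN1A had -2.01 ± 0.037, the angiogenic factor gene VEGFA -1.75 ± 0.055 and the nuclear receptor gene PPARA -0.92 ± 0.095. WEE1, a mitotic kinase activated by CLOCK and BMAL1 in liver, went the other way at 1.18 ± 0.067. Several of these genes answer to other signals as well, VEGFA to low oxygen among them, and which signal moved them was not tested.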

How the data were processed

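Total RNA of 6 libraries was sequenced on the BGISEQ500 from single ends, per the labels' protocols. The authors deposited TPM per gene, written to 2 decimals, and each library sums to the fixed total of that unit. HISAT, Bowtie2 and the mouse build GRCm38.p6 are named per the submitters' processing notes, while symbols and identifiers are human; no source used here gives the quantifier, the counting rules or the sequence that reads were aligned to. Promoter windows and coordinates are RefSeq's on GRCh38.p14 and exon overlaps GENCODE's v29; neither was joined to read positions.

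Differences are on the log2(TPM + 1) scale, where low genes change less than they do in TPM. Genes whose mean over the 6 libraries reached 1 TPM, 12195 in number, were fitted with limma 3.58.1 in R 4.3.3 (mean-variance trend, two-sided, Benjamini-Hochberg over all tested genes, threshold 0.05), with no block. Libraries of a group had the same value in 0.320 to 0.541% of tested genes, so none was a copy of another. Gene ratios were compared with exact permutation tests. In a simulation with 12195 genes, 50 of them changed at each size, 24% of those given a log2 change of 0.25 were called. The shares were 62% at 0.5 and 100% at 1 or 2, with 10 false calls. So few changed genes make the Benjamini-Hochberg cut stricter than it was between LF3 and CON, where 85.5% passed. The simulated rates therefore do not describe how often real changes of these sizes were called here. Named genes were all 10 members, the core activators and up to 6 called genes per list with the largest differences among those averaging 5 TPM or more; exceptions are stated, and a few list genes are not reported here. Promoters were printed for members with the largest called changes, except that DBP, with no motif match, gave way to NR1D2. The members and lists were chosen with earlier results of these data known. The alternatives tried were 2 scalings (median-ratio and quantile), pseudocounts of 0.5 and 0.1, a 5 TPM filter or none, array weights, robust variances, no variance trend, a replicate block, and each library left out in turn. Figures were drawn with matplotlib 3.10.9.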

Additional observations from a re-analysis of the deposited data

How the results depend on the processing

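Members called lower numbered 6 in the reported fit, 5 to 7 over the other settings and 6 whichever library was left out; members called higher numbered 1, but 0 with a filter of 5 TPM, which drops DBP, PER2 and PER3, 0 after median-ratio scaling and 2 after quantile normalization. Signs turned for PER3 (-0.10 after median-ratio scaling), CRY1 (-0.18 and -0.22 after median-ratio scaling and quantile normalization) and BMAL2 (-0.033 and -0.13). Median-ratio scaling and quantile normalization left 1 and 1 activator or ROR gene called higher in place of 3. Repressor partners called higher numbered 9 and 9 in place of 15, and those called lower 4 and 5 in place of 1. PER and CRY modifiers called lower numbered 10 and 10 in place of 6. Clock-driven genes called higher numbered 1 and 1 in place of 2. All tested genes moved too under these scalings. Those called higher numbered 5195 and 5355 in place of 6489, and those called lower 5205 and 5054 in place of 3938. With a filter of 5 TPM 1 activator or ROR gene was called lower, since RORA, among others, was no longer tested. Genes listed for the response to cAMP or serum and called higher ranged from 1 to 2 when a library was left out (2 without LF3 replicate 1). Adding 1 TPM to both genes moved the log2 ratios of NR1D1 to BMAL1 to -1.64, PER2 to CRY1 to -0.79, CRY1 to CRY2 to 1.93, NR1D1 to NR1D2 to -1.91, DBP to TEF to 1.26, DBP to NFIL3 to 2.60 and NR1D1 to RORA to 0.52, all with the sign kept. The labels do not say whether same-numbered libraries were paired. The deviations of same-numbered libraries from their group means correlated at 0.048, 0.11 and 0.16. Those of differently numbered libraries correlated at -0.17 to 0.074, the highest being CON replicate 1 with LF3 replicate 2. These values do not settle whether the numbers mark a pairing. With the replicate number as a block, 6 members were called lower and 1 higher, and 6536 genes in all were called higher and 3986 lower. Depth is unknown, which limits CIART, HLF and RORB most.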

Other observations

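PER1 belongs to the genes that serum, cAMP and glucocorticoids induce, and other genes of those responses were measured too. Of 12 tested genes listed for the response to cAMP or serum, 10 were called lower and 1 higher. Their median was -1.42 on the log2 scale beside 0.24 for all tested genes, of which 32.3% were called lower and 53.2% higher. FOS, an AP-1 subunit, averaged 57.3 ± 1.26 in CON and 6.14 ± 1.91 TPM in LF3 (mean ± SD, n = 3), and the nuclear receptor gene NR4A1 at 25.4 ± 1.94 and 3.44 ± 0.529 TPM. Log2 differences were -2.98 ± 0.045 for ATF3, -1.85 ± 0.051 for JUNB and -1.36 ± 0.15 for EGR1 (limma standard errors). The inhibitor gene ID1 was the member called higher, at 0.94 ± 0.074, or 0.58 after quantile normalization. EGR1 and FOS varied more between LF3 libraries than PER1 did, with coefficients of variation of 27.2% and 31.0% against 5.52%. Whether PER1 and these genes fell through a shared signal was not tested, and the list was chosen with earlier results of these data known.

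Of 9 tested glucocorticoid-induced genes, 5 were called higher and 4 lower (4 and 4 after median-ratio scaling), with a median of 0.19. These counts lie near the shares over all tested genes, of which 53.2% were called higher and 32.3% lower (42.6% and 42.7% after that scaling). The phosphatase gene DUSP1 had a log2 difference of -3.16 ± 0.080, the EGFR inhibitor gene ERRFI1 -2.87 ± 0.041 and TSC22D3 -2.23 ± 0.070. The co-chaperone gene FKBP5 had 2.20 ± 0.051, NFKBIA 1.63 ± 0.040 and the kinase gene SGK1 0.63 ± 0.048, the last with 0.36 and 0.27 under the median-ratio and quantile scalings. TSC22D3 also stands in the list of clock-driven genes.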
